A study of Mus musculus with 12 samples.

Results

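miR-128 is a brain-rich microRNA (miRNA) that mice encode in a pair of genes, Mir128-1 and Mir128-2. Its counts were taken from small RNA libraries of the hippocampus of individual male mice of the strain C57BL/6NCrl, for which the labels name no mutant allele. The mice were untreated, or had received an electroconvulsive shock (ECS) 0.5, 1, 3, 6 or 24 h before; the shock is a current that induces a seizure and is used here to drive neuronal activity. There are 2 libraries per group, 12 in all. Replicate 1 of every group belongs to a first time course and replicate 2 to a second, so NT-1 is the untreated library of the first and 6h-2 the 6 h library of the second. A tag, meaning a distinct insert sequence of at least 18 nt, was counted for miR-128 when its whole length matched the Mir128-1 or Mir128-2 hairpin exactly. This rule took 62 tags, 47 of the 3p arm and 15 of the 5p arm, with 1652625 and 811 counts over the 12 libraries, out of 30022027 miRNA counts; the 2 genes were 2 of 1174 annotated hairpins. None of the 62 tags matched another hairpin. Arms were told apart by the middle of the hairpin, so 1 tag counted as 3p, with 8 counts in NT-1 alone, lies mostly in the Mir128-2 loop and holds 1 base of the mature 3p arm.

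A miRNA is cut from a hairpin precursor first by Drosha, which sets 1 end of each arm, and then by Dicer, which removes the loop. The arm that is loaded into an Argonaute protein is kept, the partner (star) arm is mostly degraded, and targets are recognised mainly through the seed, bases 2 to 8. Moving the 5′ end by 1 base therefore changes the seed, while changes at the 3′ end leave it intact. miR-128 is known as a neuronal miRNA that restrains excitability, and mice that lack it in neurons develop seizures.

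Both genes lie in introns on the strand of their host gene. Mir128-1 (chr1:128202361-128202430, plus strand, GRCm38) lies in intron 19 of R3hdm1, which encodes an R3H domain protein, by the annotation of transcript R3hdm1-201. Mir128-2 (chr9:112118636-112118711, minus strand) lies in intron 19 of Arpp21, a cAMP-regulated phosphoprotein gene of neurons, by the annotation of Arpp21-223. The hairpin of Mir128-2 starts 471 bases downstream of the preceding exon and that of Mir128-1 5263 bases downstream. No annotated exon of either host overlaps its hairpin. The hairpins of 70 and 76 bases are shown because the letters outside the shared 3p arm are what tells the genes apart. Capitals mark the mature arms in RefSeq (GRCm38.p6).
Mir128-1 hairpin: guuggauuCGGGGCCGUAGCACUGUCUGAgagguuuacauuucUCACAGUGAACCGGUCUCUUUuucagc
Mir128-2 hairpin: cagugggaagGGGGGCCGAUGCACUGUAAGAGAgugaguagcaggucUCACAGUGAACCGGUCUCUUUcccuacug

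The 3p arm is the same 21 bases in both hairpins, so most 3p tags cannot be given to 1 gene. The 5p arms differ at 5 of their first 21 bases (C1G, U9A, A10U, C18A and U19A, the Mir128-1 base first, counted from the 5′ end), and share the seed GGGGCCG. The mature sequences below carry their seed in capitals. miR-27a and miR-27b are included since their seed is the one that a miR-128-3p tag has when it starts 1 base upstream.
miR-128-3p: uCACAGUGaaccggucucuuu
miR-128-1-5p: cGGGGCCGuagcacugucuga
miR-128-2-5p: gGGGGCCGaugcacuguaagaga
miR-27a-3p: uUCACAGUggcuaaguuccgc
miR-27b-3p: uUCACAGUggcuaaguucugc

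Of 1679 mature miRNAs of the mouse in RefSeq, no other has the seed CACAGUG of miR-128-3p. The seed UCACAGU was held by 2, miR-27a-3p and miR-27b-3p.

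The libraries held 1897490 to 7657222 accepted reads and 439336 to 4282006 exact miRNA counts. NT-1 stood apart, with 52.0% of its other miRNA counts at 18 or 19 nt against 0.911% to 18.1% in the remaining 11 libraries. Its longest tag was 34 nt, as in the second time course, while the 5 ECS libraries of its own time course ended at 30 nt. NT-1 thus differed from them in more than treatment, and for the comparisons that rest on it the part of ECS and of this difference cannot be told apart. Tags of 22 nt and over made up 1.36% to 13.5% of other miRNA counts in the first time course and 29.6% to 50.2% in the second, so the time courses did not overlap. The neuron-enriched list of 11 arms held 2.92% to 28.9% of miRNA counts in every library, of which miR-124-3p held 1.01% to 26.2% and led in all but the 3 h library of the second time course, where miR-9-5p did, while the liver miRNA miR-122 stayed at or below 0.0321%. Vessel miRNAs (miR-126, miR-143 and miR-145) held 6.30% to 14.5% in the first time course and 0.565% to 1.65% in the second. Nearly all of this was 1 arm, miR-143-3p, with a mean of 5.27% over the 12 libraries. The blood list held 0.133% to 1.15% in the first and 0.0379% to 0.257% in the second. It was led by miR-142-5p, with a mean of 0.298% over the 12 libraries, and miR-144-3p followed with 0.0380%. The part of any of these in the values of miR-128 was not tested. In bulk tissue, fewer cells of a type and less RNA per cell cannot be told apart.

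miR-128-3p was among the most abundant arms of every library, from the third to the seventh place. In the first time course its share of miRNA counts was 2.67% in NT-1, then 6.50% (0.5 h), 8.88% (1 h), 6.81% (3 h), 8.45% (6 h) and 6.72% (24 h). All 5 libraries after ECS thus lay above the untreated one. In the second time course the share was 7.07% in NT-2, then 4.36% (0.5 h), 5.48% (1 h), 4.59% (3 h), 6.18% (6 h) and 3.43% (24 h), and all 5 libraries after ECS lay below the untreated one. The Wilson 95% interval for NT-1 was 2.64% to 2.71% and that for NT-2 7.05% to 7.10%, which covers counting error only, as the reads were amplified without molecular identifiers.

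**Figure D1:**
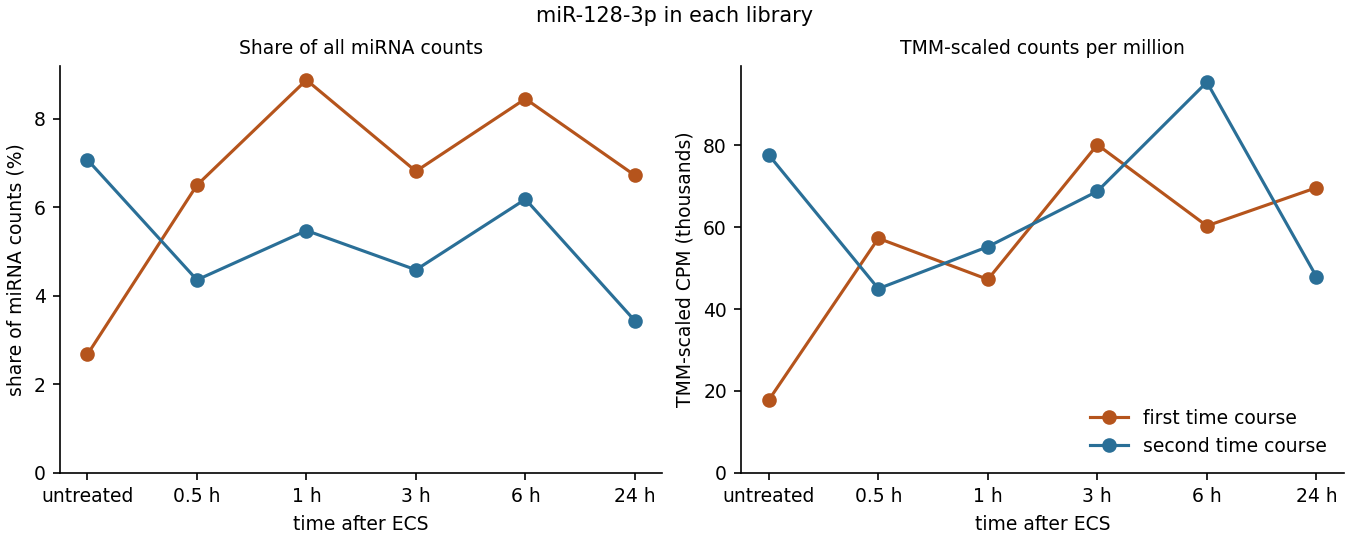
Level of miR-128-3p by time after ECS, as the share of miRNA counts in percent (left) and as CPM (counts per 1e+06 miRNA counts) scaled by the trimmed mean of M values, plotted in units of 1000 (right); each point is 1 library. NT-1, at 2.67%, is the lowest point of the left panel and NT-2, at 7.07%, is the highest of the second time course. On the right the 6 h library of the second time course lies above NT-2.

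Averaged over time courses, the share was 4.87% ± 3.11 (SD, n = 2) untreated and 6.14% ± 1.74 (SD, n = 10) after ECS. The difference within time courses, 1.27 percentage points, was not past the threshold (exact permutation test over the 36 ways to name 1 library per time course as untreated, two-sided, p = 0.306, adjusted p = 0.667 over the 8 values tested, smallest possible p 0.0278). It was 4.80 points in the first time course and fell by 2.27 points in the second. The gap between these effects, 7.07 points, was the largest of the 36 arrangements (exact permutation test, two-sided, p = 0.0278, adjusted p = 0.111 over the 8 values). On CPM scaled by the trimmed mean of M values (TMM), 4 rather than 5 libraries of the second time course lay below NT-2 and the gap had p = 0.0556 (exact permutation test, two-sided). Among tags of 20 nt and over only, chosen because NT-1 holds many short tags, NT-1 rose to 3.88% and remained the lowest library of its time course.

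The fit across all arms compared each time after ECS with the untreated pair. With p-values adjusted by Benjamini-Hochberg over 469 arms, the quasi-likelihood test of edgeR called 0 arms at each of the 5 times (0%). At an unadjusted p under 0.05 it gave 9, 2, 10, 9 and 7 arms at the 5 times from 0.5 to 24 h (1.92%, 0.426%, 2.13%, 1.92% and 1.49%). DESeq2 called 1, 0, 2, 0 and 0. The log2 fold change of miR-128-3p was 0.10 ± 0.88 (SE) at 0.5 h and 0.10 ± 0.88 at 1 h. It was 0.64 ± 0.89 at 3 h, 0.71 ± 0.89 at 6 h and 0.30 ± 0.88 at 24 h, and the adjusted p was at least 0.988 at all 5 times (edgeR). In this fit, which did not pair the libraries by time course, the SE exceeded each of these changes. Without NT-1 the values at the 5 times in order were -0.55, -0.58, -0.04, 0.05 and -0.35, and without NT-2 the lowest and highest of them were 1.52 and 2.13, so the choice of untreated library set the sign at 4 of the 5 times. With 1 untreated library left, the spread was taken from the other groups.

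The neuron-enriched miRNAs, a list that includes the activity-induced pair miR-132 and miR-212, had no member called at any time (0 of 11). Their median log2 fold change at the same 5 times was -0.43, -0.16, -0.13, 0.18 and 0.08, beside 0.15, -0.00, 0.15, 0.01 and 0.23 over all arms. None of the 7 blood, 6 vessel, 4 oligodendrocyte and 3 muscle arms tested, nor miR-122, was called at any time.

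**Figure D2:**
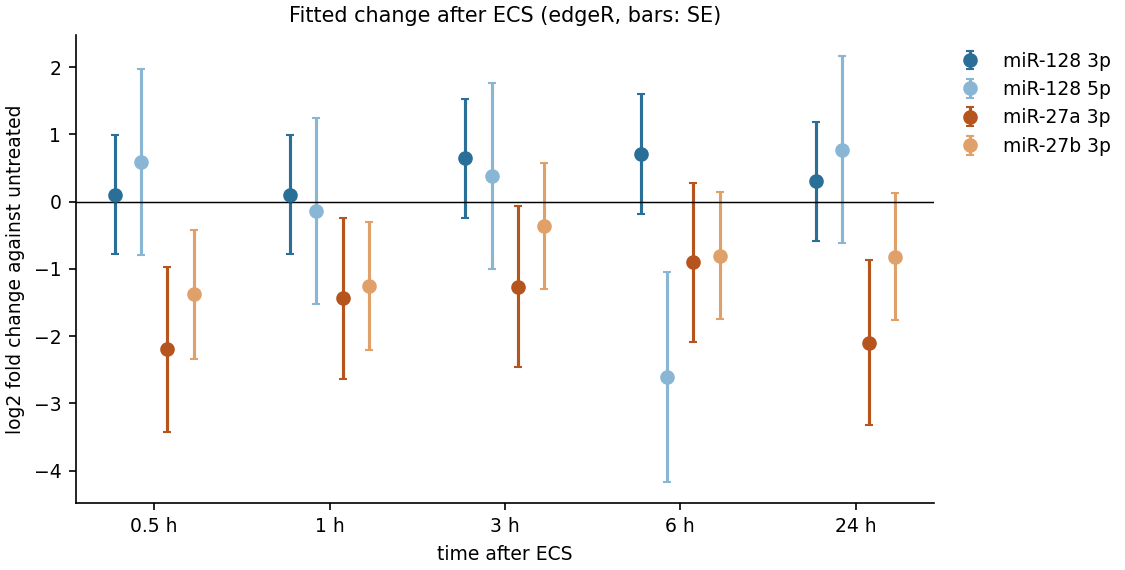
Fitted log2 fold change against untreated at each time after ECS for both arms of miR-128 and the 3p arms of miR-27a and miR-27b; points are edgeR estimates over 2 libraries a group and bars are the SE. For miR-128-3p every bar crosses 0, with estimates between 0.10 and 0.71.

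Between time courses, the log2 fold change of miR-128-3p (second over first, time point in the model) was 0.29 ± 0.42 (SE, edgeR, adjusted p = 0.617), beside a median of 0.29 over all arms. Of all 469 arms, 152 were called (32.4%), 94 higher and 58 lower in the second time course. Without the 1 h library of the first time course 92 were called. Scaled to the total of miRNA counts, the change of miR-128-3p turned to -0.34, the median over all arms to -0.30, and the split of calls to 49 higher and 113 lower. Relative to the median arm, miR-128-3p thus differed little on either scale. As a share of miRNA counts the first time course had 6.67% ± 2.19 (SD, n = 6) and the second 5.19% ± 1.32 (SD, n = 6), with the second below the first at 5 of 6 times (exact permutation test over the 64 flips within time points, two-sided, p = 0.25, adjusted p = 0.333). This direction depended on the scale, since the second minus the first was -1.49 points here, 1.39 points as a share of accepted reads and 0.959 points on TMM-scaled CPM. Of the neuron-enriched list, 1 of 11 members was higher in the second time course (miR-129-5p) and 2 were lower (miR-134-5p and miR-138-5p). Of 7 blood arms miR-144-3p and miR-142-5p were lower in the second time course, of 6 vessel arms miR-143-3p and miR-145a-3p were lower, and the liver miRNA miR-122 was higher. The lists did not move as a whole. The median log2 fold change over the blood arms was 0.58, against the direction of the 2 called. Over the vessel arms it was -1.12, but miR-126a-3p had 1.30 (not called). No oligodendrocyte or muscle arm was called (0 of 4 and 0 of 3).

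The 10 most abundant miR-128-3p tags, printed as deposited with the seed in capitals, show where the molecule varies. Tags 1 to 6 and 8 share the main start and differ at the 3′ end only. Tags 7, 9 and 10 start 2 bases downstream and have another seed.
tag 1: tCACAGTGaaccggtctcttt
tag 2: tCACAGTGaaccggtctctt
tag 3: tCACAGTGaaccggtctctttt
tag 4: tCACAGTGaaccggtctct
tag 5: tCACAGTGaaccggtctcttttt
tag 6: tCACAGTGaaccggtctctttc
tag 7: aCAGTGAAccggtctcttt
tag 8: tCACAGTGaaccggtctc
tag 9: aCAGTGAAccggtctctttt
tag 10: aCAGTGAAccggtctctt

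Tag 1, the RefSeq mature sequence, had 941066 counts (56.9% of the 3p arm). Tag 2, without the last base, had 349077 (21.1%). Tag 3, with 1 more base that only the Mir128-1 hairpin has, had 290303 (17.6%). Together these 3 held 95.6% of the 3p counts. Tags 4 and 5 had 21852 and 18146 counts, and tag 6, the 22 nt form that only Mir128-2 encodes, had 12428. Tags 7 to 10 had 7900, 4933, 2855 and 1112 counts.

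The order of the lengths changed between libraries. In NT-1 the 20 nt form held 43.6% of the 3p counts, the 19 nt form 27.0% and the 21 nt form 21.4%. In the remaining 11 libraries the 21 nt form led, with 50.9% to 65.6%, and the 19 nt form held 0.512% to 2.46%. The 22 nt form held 13.5% at 0.5 h and 12.7% at 24 h in the first time course, but 0.931% at 1 h, 0.580% at 3 h and 0.102% at 6 h. It held 19.8% to 30.03% in all 6 libraries of the second. Other miRNAs of those 3 libraries also held few long tags, with 8.90%, 5.31% and 1.36% at 22 nt and over.

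**Figure D3:**
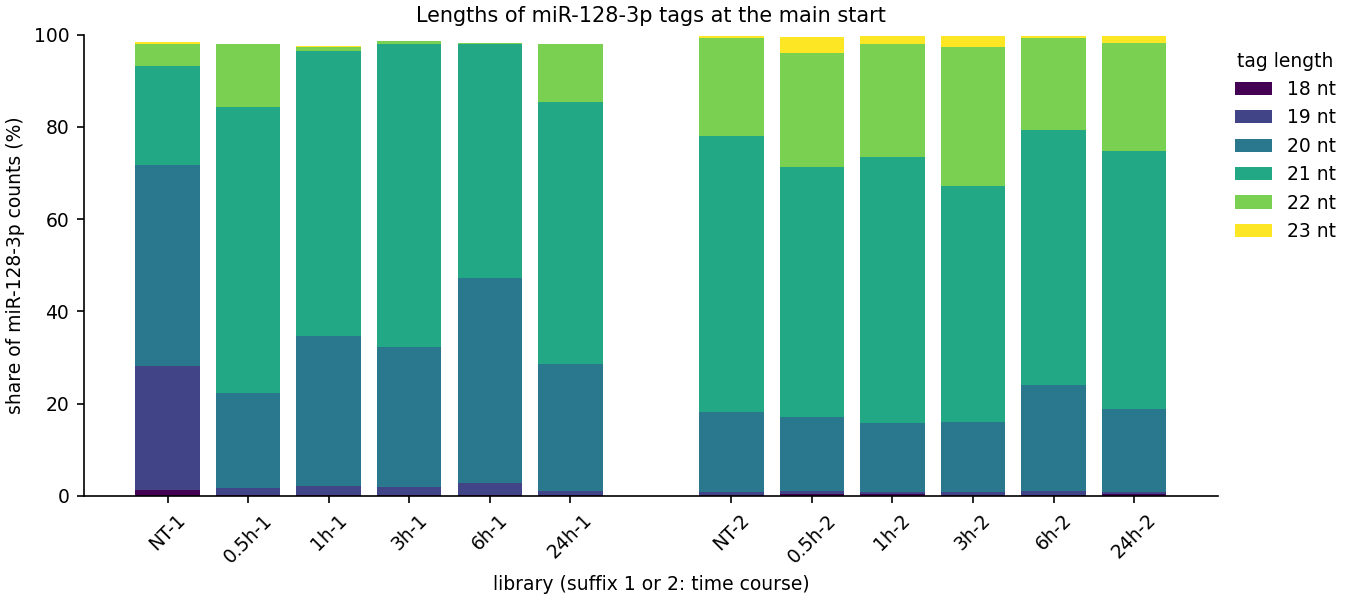
Share of miR-128-3p counts, in percent, at each tag length among tags with the main start, 1 bar per library. NT-1 has 27.0% at 19 nt, and the 1, 3 and 6 h libraries of the first time course have under 1% at 22 nt.

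The 3p tags of the first time course averaged 20.6 nt ± 0.306 (SD, n = 6) and those of the second 21.1 nt ± 0.0799 (SD, n = 6). The second was longer by 0.514 nt, and longer at each of 6 times (exact permutation test over the 64 flips, two-sided, p = 0.03125, the smallest possible, adjusted p = 0.0625). It was 0.515 nt without the 1, 3 and 6 h libraries of both time courses, an alternative chosen after seeing the data. Other miRNAs moved with it, at 19.6 to 20.6 nt in the first and 20.8 to 21.2 nt in the second time course. ECS against untreated differed by 0.360 nt (exact permutation test over the 36 arrangements, two-sided, p = 0.0556, adjusted p = 0.222), with 0.662 nt in the first and 0.0579 nt in the second time course.

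The 5′ end was more constant than the 3′ end. The main start held 99.1% of all 3p counts, a start 2 bases downstream 0.734%, 1 base downstream 0.0778%, and 1 base upstream 0.0698%. The main start took 97.5% to 98.6% in the first time course and 99.5% to 99.7% in the second, without overlap. The second was higher at each of 6 times, on average by 1.52 percentage points (exact permutation test over the 64 flips, two-sided, p = 0.03125, the smallest possible, adjusted p = 0.0625). Leaving out a time point gave 1.38 to 1.61 points.

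The downstream start accounted for nearly all of this gap. In the first time course it held 1.29% in NT-1, then 1.88%, 2.39%, 1.34%, 1.69% and 1.79% from 0.5 h to 24 h. In the second it held 0.178% in NT-2, then 0.228%, 0.174%, 0.176%, 0.207% and 0.189%. The lowest library of the first time course, NT-1, was above the highest of the second. The part of tag length in this gap was not tested. No mature miRNA in RefSeq has the seed CAGUGAA of these tags (0 of 1679).

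The same start was looked at in 36 other arms, those that reached 1000 counts in each library. Their median share 2 bases downstream of the main start was 0.0268% in the first and 0.0543% in the second time course. Of the 36, 23 were higher in the second and 13 lower. The share was lower at all 6 time points in 2 of them, miR-107-3p (0.642% against 0.0564%) and miR-125b-5p (1.26% against 0.151%). It was higher at all 6 in 5, let-7d-5p, let-7f-5p, miR-143-3p, miR-1a-3p and miR-30a-5p. The change of miR-128-3p, a fall of 1.52 points, was the second largest of the 37 arms in size, after the rise of 4.86 points in miR-127-5p. These arms were singled out after their values were seen. For the main start, the change of miR-128-3p in this comparison was 1.49 points, in place 14 of 37 by size. Going from the first to the second time course, 4 of the 36 gained main-start share at every time point and 4 lost it.

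**Figure D4:**
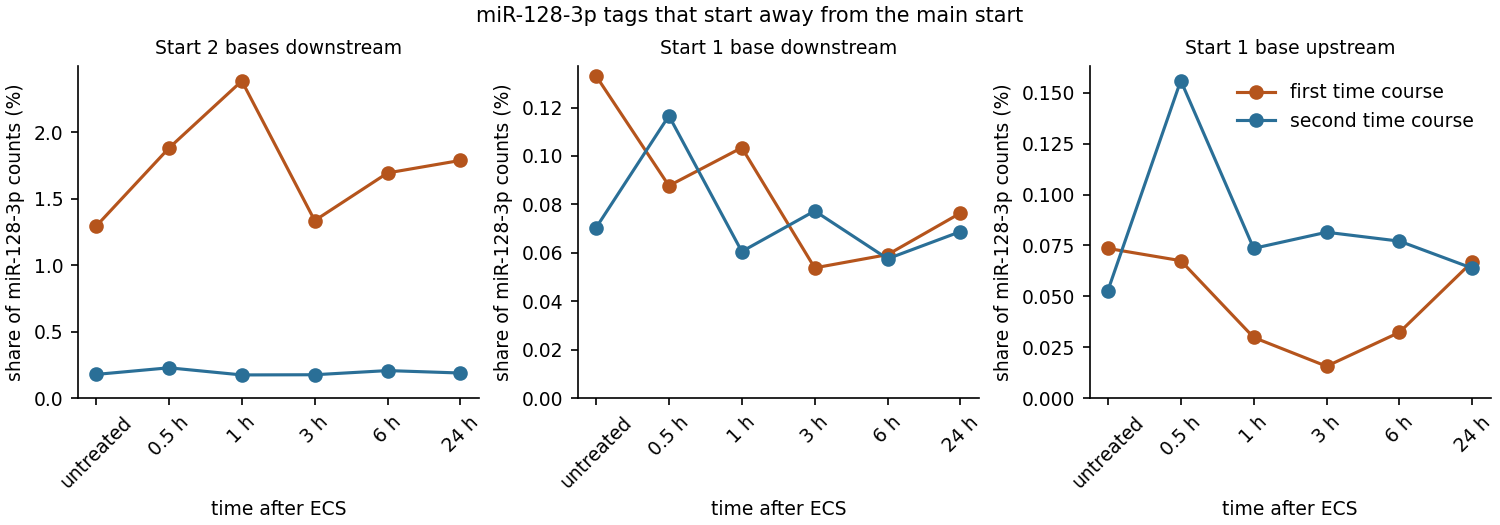
Share of miR-128-3p counts, in percent, that start 2 bases downstream (left), 1 base downstream (middle) or 1 base upstream (right) of the main start, by time after ECS; each point is 1 library and each panel has its own axis. In the left panel the first time course lies between 1.29% and 2.39% and the second between 0.174% and 0.228%.

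A start 1 base upstream gives miR-128 the seed of miR-27. The leading such tag, shown with that seed in capitals, had 653 counts.
upstream tag: cTCACAGTgaaccggtctcttt

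The upstream start held 0.0156% to 0.0735% of 3p counts in the first time course and 0.0528% to 0.156% in the second, and the ranges overlapped. The low end of the first was at 1, 3 and 6 h (0.0298%, 0.0156% and 0.0323%), the libraries with few tags of 22 nt. The leading tag, itself 22 nt long, had 12, 2 and 1 counts there, 58 and 69 at 0.5 and 24 h, and 0 in NT-1. The part of tag length was not tested. The difference of 0.0365 points had p = 0.125 (exact permutation test over the 64 flips, two-sided, adjusted p = 0.2). The 0.5 h library of the second time course was highest, with 265 counts. Against miR-27a-3p and miR-27b-3p themselves these tags were few, with 0.111 to 4.46 per 100 miR-27 counts.

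The miR-27 pair, known from vessel and fat tissue, held 1.77% of miRNA counts in NT-1 and 0.153% to 0.719% in the remaining 11 libraries. There were 1.51 miR-128-3p counts per miR-27 count in NT-1 and 9.48 to 28.6 elsewhere. After ECS the log2 fold change was -2.19 ± 1.23 (SE) at 0.5 h and -2.10 ± 1.22 at 24 h for miR-27a-3p, its lowest values, and -1.38 ± 0.96 at 0.5 h for miR-27b-3p. None passed (edgeR, adjusted p of 0.988 or more). Between time courses miR-27a-3p had -1.36 ± 0.54 (adjusted p = 0.067) and miR-27b-3p -0.57 ± 0.45 (adjusted p = 0.332, edgeR). Scaled to total miRNA counts they had -1.97 ± 0.54 and -1.20 ± 0.43 (SE, edgeR, adjusted p = 0.011 and 0.039). On that scale 162 of 469 arms were called, 49 higher and 113 lower in the second time course, and the median over all arms was -0.30.

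miR-128-3p reads also carried bases that neither hairpin encodes. Over the 12 libraries together an A was the most frequent, in 4.20% of 3p reads, against 0.669% with C, 0.292% with G and 0.146% with U. At 1, 3 and 6 h of the first time course C outnumbered A, with 1.90%, 2.00% and 3.43% against 1.71%, 1.40% and 2.30%. The leading form was the 21 nt sequence with an A, 49374 counts, shown with the added base in capitals.
tag with added A: tcacagtgaaccggtctctttA

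An added U could be seen only where the hairpins have another base, since a U after 21 nt is also the Mir128-1 sequence. The 20 nt form with an A or a C has 21 bases and cannot be told from a changed last base. The 19 nt form with a C (5478 counts) likewise has the length of the 20 nt form.

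The share of 3p reads with 1 added A was 1.91% in NT-1, then 3.15%, 1.71%, 1.40%, 2.30% and 3.54% from 0.5 h to 24 h of the first time course. In the second it was 4.83% in NT-2, then 4.57%, 4.95%, 5.59%, 4.63% and 5.75%. The time courses did not overlap, and the second was higher by 2.72 points on average and at each of 6 times (exact permutation test over the 64 flips, two-sided, p = 0.03125, adjusted p = 0.0625). It was 2.18 points without the 1, 3 and 6 h libraries of both. ECS and untreated libraries differed by 0.389 points (exact permutation test over the 36 arrangements, two-sided, p = 0.583, adjusted p = 0.778).

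This value moved with tag length. Per 100 counts of the 21 nt form there were 0.265, 0.168 and 0.0265 with an added A at 1, 3 and 6 h of the first time course, against 3.53 to 8.08 in the remaining 9 libraries. Per 100 counts of the 20 nt form, where the product is 21 nt, the same 3 libraries had 3.57, 3.63 and 3.67, inside the 3.23 to 4.96 of all libraries but NT-1, which had 0.666. In the 36 other arms the median share with an added A was 3.07% in the first and 3.42% in the second time course, higher at all 6 time points in 9 arms and lower in 1 (let-7c-5p). The change of miR-128-3p ranked twelfth of 37 in size.

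Added U was rare, at 0% to 0.0718% in the first and 0.0719% to 0.360% in the second time course. The second was higher by 0.199 points on average and at each of 6 times (exact permutation test over the 64 flips, two-sided, p = 0.03125, adjusted p = 0.0625). NT-1 and NT-2 differed least, with 21 and 230 such counts. Most of these tags are 23 nt or longer, a length the first time course had few of.

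The star arm was scarce. The 5p arm had 811 counts in all, 1 for 2038 of the 3p arm. In the first time course there were 11, 103, 24, 9, 0 and 133 counts in NT-1 and from 0.5 h to 24 h, and in the second 149, 63, 124, 143, 6 and 46. Per 1000 3p counts this was 0.385 in NT-1 and 0.903 (0.5 h), 0.199 (1 h), 0.0880 (3 h) and 0.891 (24 h) in the first time course. The 6 h library had 0 of 37131, which allows up to 0.0808 per 1000. In the second time course the values were 0.492 in NT-2 and then 0.371, 0.577, 0.752, 0.0734 and 0.326. In each time course the 6 h library was the lowest, on 0 and 6 counts. It also had the fewest miRNA counts of its time course, 439336 in the first and 1321437 in the second. In the first, its bound of 0.0808 lay just below the 0.0880 at 3 h, which rests on 9 counts. The 1, 3 and 6 h libraries there were also those with few long tags. The part of depth and tag length was not tested.

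The mean of the first time course was 0.411 ± 0.398 (SD, n = 6) and that of the second 0.432 ± 0.233 (SD, n = 6) (exact permutation test over the 64 flips, two-sided, p = 0.906, adjusted p = 0.906). Untreated libraries averaged 0.439 ± 0.0754 (SD, n = 2) and those after ECS 0.418 ± 0.343 (SD, n = 10), a difference of -0.0204 (exact permutation test over the 36 arrangements, two-sided, p = 0.972, adjusted p = 0.972). In the fit, the 5p arm had a log2 fold change of -2.60 ± 1.56 (SE) at 6 h (edgeR, adjusted p = 0.994), and between -0.13 and 0.77 at the remaining times.

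The 5p tags tell the genes apart, and the leading tag of each is shown with its seed in capitals.
5p tag of Mir128-1: cGGGGCCGtagcactgtctga
5p tag of Mir128-2: gGGGGCCGatgcactgtaaga

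All 811 counts matched 1 gene only, 612 Mir128-1 (75.5%, Wilson 95% interval 72.4% to 78.3%) and 199 Mir128-2. This interval pools the libraries and covers counting error only, while the share in single libraries ran from 45.5% to 88.9%. The leading tags had 555 and 130 counts. The Mir128-1 arm started at base 9 of its hairpin in 99.5% of counts and the Mir128-2 arm at base 11 in 94.97%. In the second time course Mir128-1 held 71.1% in NT-2 and then 77.8%, 71.8%, 71.3%, 83.3% and 71.7%, the 83.3% at 6 h resting on 6 counts. In the first it held 79.6%, 87.5%, 88.9% and 84.2% at 0.5, 1, 3 and 24 h and 45.5% in NT-1. NT-1 rests on 11 counts (Wilson interval 21.3% to 72.0%).

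ECS libraries were above the untreated ones by 21.8 points, averaged over time courses (exact permutation test over 30 arrangements, two-sided, p = 0.0333, the smallest possible, adjusted p = 0.222). All 9 ECS libraries with a 5p count lay above the untreated library of their time course. In the second, however, 71.8%, 71.3% and 71.7% at 1, 3 and 24 h were close to the 71.1% of NT-2 (Wilson interval 63.4% to 77.8%). The difference was 4.05 points in the second time course alone, since most of it came from NT-1. Between time courses it was -4.38 points over 5 time points (exact permutation test over 32 flips, two-sided, p = 0.562, adjusted p = 0.643).

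**Figure D5:**
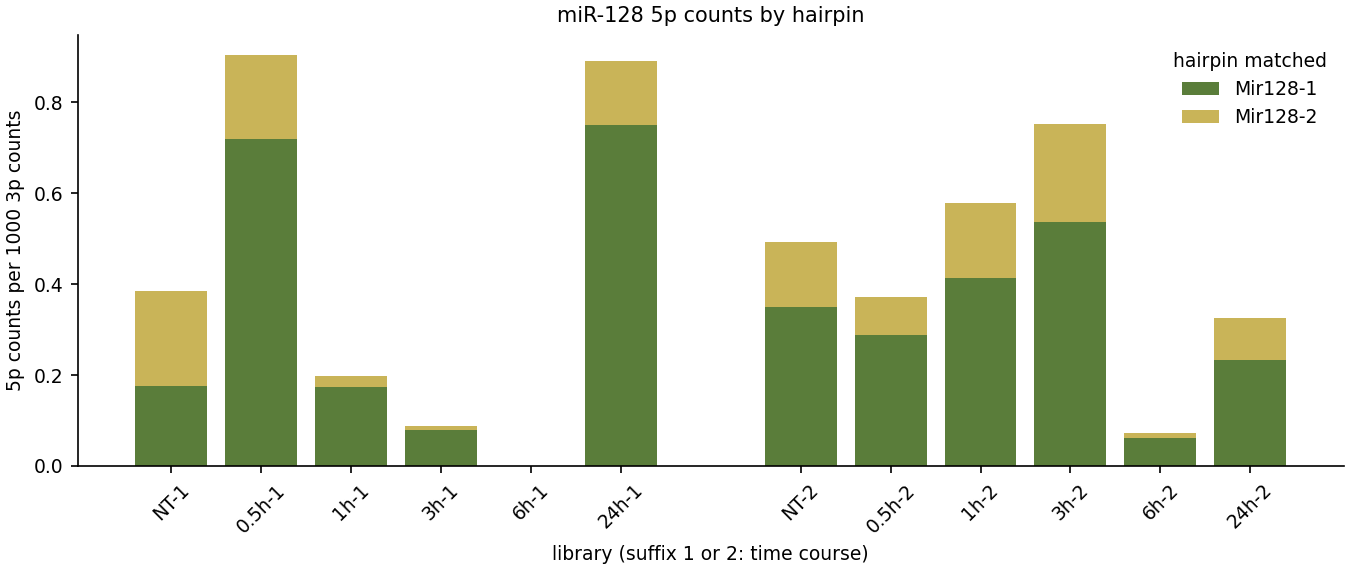
Counts of the miR-128 5p arm per 1000 counts of the 3p arm in each library, stacked by the hairpin they match. Mir128-1 makes up the larger part in every library with 5p counts but NT-1 (45.5% of 11 counts), and the 6 h library of the first time course has none.

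The 3p counts that match 1 gene gave another ratio. They numbered 312222 for Mir128-1 and 12692 for Mir128-2, while 1327711 (80.3%) matched both. At 22 nt the form ending in U outnumbered that ending in C by 11.1 to 37.0 in the 12 libraries. A U added to the shared 21 bases makes the same tag as the Mir128-1 sequence, so these tags do not divide the 3p arm between the genes.

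Among 211 other arms that reached 10 counts in each library, the patterns most like that of miR-128-3p over the 12 libraries were miR-379-5p (Pearson r of log2 CPM 0.85), miR-3107-5p (0.83), miR-135a-3p (0.83), miR-486-5p (0.83) and miR-369-3p (0.82). The median r over the 211 was 0.15. These values share library and scaling and are a description only. miR-3107 and miR-486 share their tags, which were split between them, and count as 1 pattern. Within the first and second time courses r was 0.89 and 0.87 for miR-379-5p, 0.88 and 0.59 for miR-135a-3p, and 0.82 and 0.90 for miR-369-3p. Without NT-1, r was 0.78 for miR-379-5p, still the highest, but the other 4 left the first 5 places. They had 0.59 (miR-3107-5p and miR-486-5p), 0.54 (miR-135a-3p) and 0.62 (miR-369-3p), and the places went to miR-135a-5p (0.73), miR-27b-3p (0.73, from -0.20 with NT-1), miR-493-5p (0.69) and miR-674-3p (0.68), so that the list apart from miR-379-5p rested on NT-1. miR-379-5p had a CPM of 666 in NT-1 and 949 to 6342 in the remaining libraries. For miR-124-3p, the leading neuronal miRNA, r was -0.75 in the first and 0.53 in the second time course. Over all libraries it was -0.29, and 0.45 without NT-1.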

How the data were processed

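The authors sequenced gel-purified small RNA (Illumina DGE small RNA kit, Genome Analyzer IIx), removed adapters and deposited, for each of 12 libraries, every distinct tag with its read counts, not normalized and not aligned. The gel cut and ligation set which lengths and ends were recovered. Tags were matched here over their full length to 1174 hairpins of GENCODE M21 (GRCm38), and tags of several miRNAs were split equally. Sequences are from RefSeq. Groups and replicates came from the labels. The composition table of the study lists the untreated pair the other way round from the deposited totals and from its own mapping table, and the labels were kept.

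edgeR 4.0.16 (TMM, quasi-likelihood, Benjamini-Hochberg over all arms) tested arms with at least 10 counts in 2 libraries, and DESeq2 1.42.0 was an alternative. Called means adjusted p under 0.05. The scripts were tested on simulated data. Single values were compared by exact permutation tests (scipy). The replicate number marks the time course in the study. Deviations from group means correlated between libraries of 1 time course at r = 0.36 to 0.81 over 15 pairs of time points, so the numbers pair the libraries. The paired fit, with the replicate block, changed no call of miR-128. Each library is 1 mouse. The p-values of edgeR and DESeq2 rest on the spread between these libraries. Those of the exact tests only rank the observed difference among the rearrangements of the libraries. There is only 1 first and 1 second time course, so the libraries within each do not replicate a difference between them. Libraries of a group differed far beyond sampling noise, and none was a duplicate.

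The members, lists and rules were chosen with earlier results of these data known. Named were both arms, the 10 most abundant 3p tags, miRNAs with either seed, the 5 arms of most like pattern and list members by count. Alternatives were other scalings, filters, counting by the first 18 nt, blocks and leaving out libraries. Single-base substitutions were not analysed here.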

Additional observations from a re-analysis of the deposited data

Results flagged for a closer look

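In 3 values every library after ECS moved one way in the first time course and the other way in the second. The share of miR-128-3p in miRNA counts is described above, with a gap of 7.07 points between the effects. The share of 3p counts starting 1 base upstream fell by 0.0311 points after ECS in the first time course and rose by 0.0376 in the second, a gap of -0.0687 (exact permutation test over the 36 arrangements, two-sided, p = 0.111, adjusted p = 0.278). The 0.0735% of NT-1 rests on 21 counts, 6 of them from an 18 nt tag seen in no other library. The 0.5 and 24 h libraries of its time course were close to it, at 0.0675% and 0.0670%, so the fall there is not secure. The share of 3p reads with an added U had a gap of -0.238 points (exact permutation test, two-sided, p = 0.0278, adjusted p = 0.111). It rests on 21 counts in NT-1 and 20, 13, 2, 0 and 27 after ECS in that time course. Most of these tags are 23 nt or longer. The 23 nt form without an added base held 0.336% in NT-1 and 0.00269% to 0.0778% after ECS. In the second time course it held 0.420% in NT-2, then 3.49%, 1.77%, 2.36%, 0.406% and 1.41%. The part of tag length was not tested.

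In 4 of 16 sets of 6 libraries (5 for the 5p share of the first time course) 1 library lay far from the others by Dixon's ratio, where chance gives about 1 in 20. NT-1 had 45.5% of its 5p counts on Mir128-1, from 11 counts, and 0.0718% of 3p reads with an added U, the highest of its time course. The 0.5 h library of the second time course had 99.5% of 3p counts at the main start, the lowest of its time course, and 0.156% 1 base upstream, the highest.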

How the results depend on the processing

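The change of miR-128-3p after ECS passed the threshold in 0 of 100 refits (adjusted p of 0.519 or more in edgeR and DESeq2). At 0.5 h it turned to -0.19 with no filter on low counts and to -0.10 by the first 18 nt. Leaving out 1 library gave -0.55 to 1.52 at 0.5 h, -0.58 to 1.53 at 1 h, -0.037 to 2.07 at 3 h, 0.05 to 2.13 at 6 h and -0.35 to 1.72 at 24 h, with NT-1 and NT-2 as the ends, and without the 0.5 h library of the first time course the 0.5 h value was -0.05. With the replicate block, a paired fit, the values were 0.21 ± 0.72 (SE), 0.18 ± 0.71, 0.75 ± 0.72, 0.77 ± 0.71 and 0.42 ± 0.72. At 3 and 6 h the SE was thus slightly below the change, and no call changed. Between time courses it was -0.34 by total miRNA counts, and -0.069 to 0.46 without 1 library (-0.069 without NT-1, -0.046 without NT-2).

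The difference in the 3p share between time courses turned to 1.39 points of accepted reads and to 0.959 by TMM (-2.67 to -1.10 without a time point). ECS minus untreated turned to -0.0801 points of accepted reads and ran from -2.27 (without NT-1) to 4.80 (without NT-2). For 5p counts per 1000 3p counts, leaving out a library or time point gave -0.0813 to 0.0316 for ECS and -0.108 to 0.138 between time courses. Between time courses, without the 1, 3 and 6 h libraries, the 5p ratio became -0.330 and the Mir128-1 share 3.79 points. At the upstream start, the ECS difference ran from -0.0311 (without NT-2) to 0.0376 points (without NT-1) and was -0.00495 without the 0.5 h library of the second time course. It turned to -0.0626 points for added U without NT-2. The causes were not tested. Scaled CPM, tags of 20 nt and over, and the time points left out together were chosen after seeing the data.

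DESeq2 called 222 arms between time courses. Depth limits the 5p arm, with 0 to 149 counts a library, so its locus shares in NT-1, 3h-1 and 6h-2 rest on 11 counts or fewer.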
